A study of Mus musculus with 8 samples.

Results

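Cytosolic ribosomal protein genes encode the protein part of the ribosome that translates messenger RNA in the cytoplasm. They were taken by symbol: every probe set with exactly 1 platform gene symbol beginning Rpl or Rps followed by a digit, or naming Rplp0 to Rplp2 or Rpsa, without the Rps6k kinases and pseudogene symbols. This gave 106 probe sets for 50 genes, among 45037 probe sets that were not controls and 18193 genes with a symbol of their own. There were 20 genes of the large subunit, 2 of its stalk, 21 of the small subunit and 6 paralogs named after a family member. The remaining gene was Rps19bp1, whose symbol matches but whose product is a binding partner of Rps19 and no ribosomal protein. No measured value entered the choice. Several well known members (Rplp1, Rpl5, Rpl32 and Rpl3 among them) had no probe set with 1 symbol and were not analysed here, nor were 110 probe sets that name a gene of this kind beside others.

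The arrays measured RNA from the mesenchyme that surrounds the airway epithelium, cut by hand from lungs of CD1 mouse embryos at E11.5 to E12.5. There were 4 groups of 2 arrays: mesenchyme from around branch tips and from around the stalks behind them, both lysed directly after dissection, and stalk pieces kept for 12 h on tissue culture plastic in control growth medium or in the same medium with 400 ng/ml of the secreted signal protein WNT1. No group carried a mutation or transgene. The labels do not say how many embryos went into an array or whether the replicates of a group are separate litters. The p-values therefore cover the differences among these 8 arrays alone, part of which may be technical, and 2 arrays a group limit the precision of every value.

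Each ribosome holds a single copy of most of these proteins, so a cell needs them in nearly equal amounts. Their messenger RNAs are among the most abundant in growing cells, and in mammals many begin with a terminal oligopyrimidine (TOP) tract, a C followed by a run of C and T, through which mTOR and its partner Larp1 set how much of the message is translated. Transcription of the same genes is known to follow Myc. Because their messages are abundant, several of the genes (Rplp0, Rpl13a, Rps18, Rpl19, Rpl4) serve in many laboratories as reference genes.

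The tract was searched at the annotated starts of the members, since it is the shared element through which the family is controlled. RefSeq promoter sequence of GRCm38.p6 was at hand for 44 of the 50 genes. The windows below run from 60 bases before the start through the first 20 bases from it, in the direction of the gene, and the capitals mark the run of C and T that opens with a C at the annotated start. They are shown for a large-subunit gene, the kinase target Rps6, the reference gene Rps18, the stalk gene Rplp2 and, as a member without the run, Rpl39, the gene with the largest fold change below.
Rpl35, chr2:39005112-39005191 (minus strand): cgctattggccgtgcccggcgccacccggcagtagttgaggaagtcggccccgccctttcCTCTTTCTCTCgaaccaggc
Rps6, chr4:86857348-86857427 (minus strand): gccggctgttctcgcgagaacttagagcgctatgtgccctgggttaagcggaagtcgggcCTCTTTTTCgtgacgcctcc
Rps18, chr17:33955646-33955725 (minus strand): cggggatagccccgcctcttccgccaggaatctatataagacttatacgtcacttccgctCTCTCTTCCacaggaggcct
Rplp2, chr7:141447591-141447670 (plus strand): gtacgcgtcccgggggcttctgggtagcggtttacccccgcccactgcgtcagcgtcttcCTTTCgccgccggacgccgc
Rpl39, chrX:37085203-37085282 (minus strand): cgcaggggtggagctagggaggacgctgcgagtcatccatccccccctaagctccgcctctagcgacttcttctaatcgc
A C at the start followed by at least 4 further C or T was present in 8 of the 44 genes (18.2%), against 3.01% of the 27025 genes of the promoter table and 0 of 69 mitochondrial ribosomal protein genes. The other 4 with it were Rpl14, Rpl38, Rps10 and Rps27. The search was made on the coding strand at the annotated base alone, so a start annotated a few bases away gives no match. A match is a description of these letters, not a measured start or a regulated message.

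The arrays of the uncultured and cultured groups differed in technical measures that bear on every culture value below. All 8 were scaled to the same 2% trimmed mean of about 500, but the median signal was 76.5 to 99.8 on the uncultured arrays and 149 to 299 on the cultured ones, and the 99.5th percentile was 18658 to 25616 against 35073 to 50014. The ratio of 3′ to 5′ signal of Actb, a measure of RNA length after 2 rounds of amplification, was 2.02 to 4.52 without culture and 6.81 to 24.4 with it. WNT1 replicate 2 stood apart from the other culture arrays. Its Actb ratio was 6.81 against 21.2 to 24.4 on the others, and its median 149 against 209 to 299. Its 99.5th percentile was 50014 against 35073 to 42101. The same ratio for Gapdh did not set it apart (9.93 against 9.73 to 17.8). Marker levels moved too. The summed signal of 8 lung mesenchyme markers was 33166 to 42477 in the uncultured groups, 23528 to 38100 in control culture and 17819 to 27731 with WNT1. Their control culture minus stalk log2 fold change was below 0 in 6 of the 8, with a median of -1.54. For WNT1 culture minus stalk it was below 0 in 7, with a median of -1.75. That of 6 epithelial markers was 405 to 573 without culture and 1069 to 2422 with it, and that of 5 macrophage and blood markers 754 to 3276 against 6538 to 16629. In WNT1 culture minus stalk 2 of the 6 epithelial markers and 1 of these 5 were below 0, and in control culture minus stalk none was. Endothelial markers (4 of 5 passing the filter, without Pecam1) summed to 2568 to 4325 and 649 to 1405, and neuronal ones to 92.2 to 169 and 505 to 755. Erythroid markers summed to 66087 to 116700 and 140990 to 341860, a sum carried by the globin Hbb-y. In control culture minus stalk 1 of the 5 rose and 4 fell, with a median log2 fold change of -1.45, and in WNT1 culture minus stalk 4 of 5 were below 0, with a median of -1.31. In tissue RNA, fewer cells of a type and less RNA per cell cannot be told apart. The part of these measures in the results below was not tested.

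Ribosomal protein messages lay at the top of the signal range on every array. Of the 50 genes, 48 passed the filter on low values. Rpl3l, the paralog of Rpl3 known from muscle, lay between 3.77 and 47.8 on the 8 arrays. Rps16, a core protein of the small subunit, was represented by a single probe set at 1.61 to 119, which is below the highest array median of 298.6 throughout. The median of the 48 genes was 27528 and 29566 in tip, 27844 and 19986 in stalk, 67820 and 41110 in control culture and 53625 and 66647 in WNT1 culture. Every cultured array was above every uncultured one, and stalk replicate 2 was the lowest of the 8. The family's median rank among the genes tested was at the 99.5th to 99.7th percentile on all 8 arrays, where a rank has almost no room to rise, and 31 to 35 of the 48 genes were in the top 1%. The 106 probe sets, 0.235% of all, held 4.04% to 5.22% of the summed signal without culture and 7.52% to 12.1% with it.

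**Figure D1:**
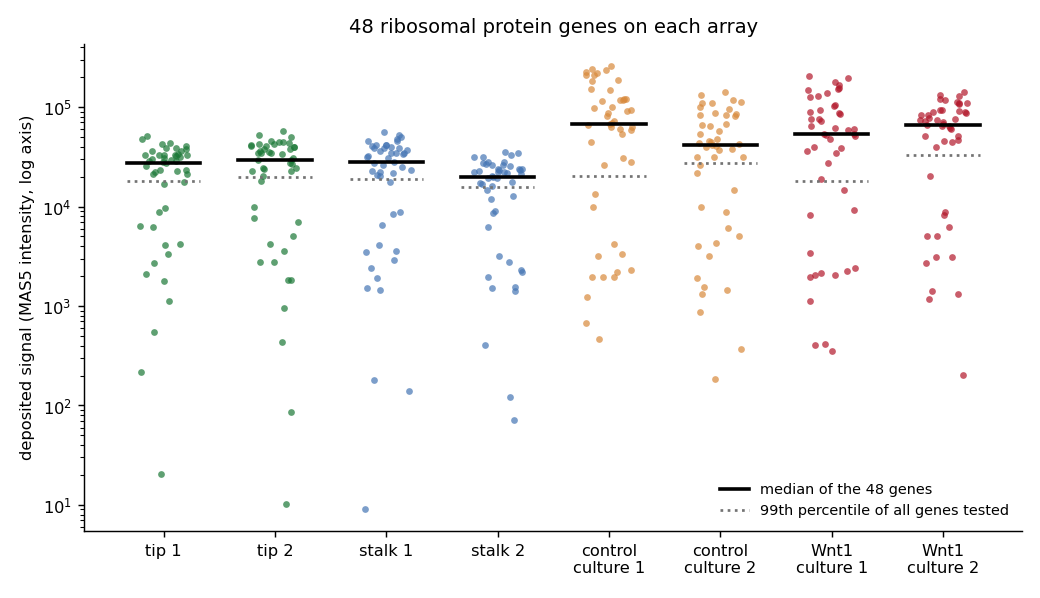
Deposited signal of the 48 ribosomal protein genes that passed the filter on each of the 8 arrays (points, log axis), with their median (black bar) and the 99th percentile of all genes tested (dotted bar). The medians of the cultured arrays, 41110 to 67820, lie above those of the uncultured arrays, 19986 to 29566, and every median lies above the 99th percentile of its own array.

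No ribosomal protein gene passed limma's test between tip and stalk mesenchyme. Fold changes here and below are log2 differences of (signal + 44), with the standard error (SE) of the fit over all 8 arrays. At an adjusted p of 0.05, 0 of 48 members passed, as did 0 of the 16112 genes tested (0%), and 1 member, Rps6, had an unadjusted p under 0.05, beside 91 genes (0.565%). The members were close to one another. Their median tip minus stalk log2 fold change was 0.24, the quartiles were 0.17 and 0.28, and 43 of 48 were above 0, beside quartiles of -0.20 and 0.22 and a median of 0.01 over all genes. In 11 members both tip arrays were above both stalk arrays and in 2 both were below, beside 18.2% and 16.2% of all genes. The shift rested on 1 array. Stalk replicate 2 held the lowest value of the 8 arrays for 36 of the 48 genes, and the members' median was 0.50 higher on stalk replicate 1 than on replicate 2. Without stalk replicate 2 the tip minus stalk median was -0.03, and without replicate 1 it was 0.49. With quantile normalization, which gives all arrays the same distribution of signals, it was 0.01.

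Among members whose tip and stalk replicates did not overlap, the largest tip minus stalk values were those of Rpl27a, Rps6 and Rpl39 above and Rps25 and Rpl14 below. Rpl39l (-0.41) and Rpl12 (-0.23) were further below 0 than Rpl14, with overlapping groups. Rpl27a, a protein of the large subunit, was at 6303 and 5098 in tip and 4130 and 1569 in stalk. The stalk arrays were both lower, with a gap between them as wide as that between the groups (1.14 ± 0.62 SE, adjusted p = 0.9999 by limma). Rps6, the small-subunit protein phosphorylated by S6 kinases, was at 4159 and 4180 in tip and at 3529 and 1402 in stalk. Its tip replicates lay together and stalk replicate 2 was again far below the other 3 arrays (0.89 ± 0.41). Rpl39, a very short large-subunit protein lining the exit tunnel, was at 546 and 435 in tip and 182 and 410 in stalk (0.73 ± 0.41), with stalk replicate 1 the low one. Rps25, at the small subunit's head, was at 1125 and 1836 in tip and 1928 and 2287 in stalk (-0.53 ± 0.40). Rpl14 was at -0.14 ± 0.43. None of these members passed the test.

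No ribosomal protein gene passed the test between WNT1 and control culture. Comparing WNT1 culture with control culture, 0 of 48 members passed the test in either direction, as did 0 of 16112 genes (0%), and 0 members had an unadjusted p under 0.05 beside 1297 genes (8.05%). The median was 0.01 with 24 members above 0 and 24 below, beside -0.08 over all genes. Single arrays differed in both directions. In the members' median, WNT1 replicate 1 was 0.38 below control replicate 1 and 0.37 above control replicate 2, and WNT1 replicate 2 was 0.09 below control replicate 1 and 0.54 above control replicate 2. Leaving out 1 array at a time moved the median between -0.27 and 0.40. Only Rps6 had both WNT1 arrays above both control arrays, at 2223 and 3119 against 2196 and 1926 (0.35 ± 0.41), beside 10.1% of all genes, and no member had both below, beside 15.9%.

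Rps27l, a paralog of the small-subunit protein Rps27 known as a target of the tumour suppressor Trp53, had the largest value of the WNT1 comparison and owed it to 1 array. It was at 9560 and 9801 in tip, 8874 and 8983 in stalk, 9819 and 8882 in control culture and 8153 and 39879 in WNT1 culture. The first 7 of these arrays lay within 8153 to 9819, and WNT1 replicate 2 was 4.06 times the highest of them. Both other probe sets of the gene gave the same picture, at 3.46 and 2.98 times the highest of the other arrays. The WNT1 minus control log2 fold change was 0.95 ± 0.57 (adjusted p = 0.71 by limma), and -0.19 without that array. WNT1 replicate 2 held the highest value of the 8 arrays in 15 of the 48 members, and control culture replicate 1 in 28. As given above, WNT1 replicate 2 also differed from the other culture arrays in technical measures, and their part in these values was not tested. For Rpl37, a zinc-binding protein of the large subunit, WNT1 replicate 2 was at 8897 and the other 7 arrays at 2056 to 4211.

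Stalk pieces after 12 h in control medium had higher signal of ribosomal protein genes than stalk taken directly from the embryo, on the deposited scale. Of 48 members, 22 rose and none fell (adjusted p under 0.05, limma), beside 17.1% higher and 9.26% lower among all genes. The members' median log2 fold change was 1.39, a 2.62-fold difference, beside 0.45 over all genes. In 38 members both culture arrays were above both stalk arrays and in 2 both were below, beside 46.1% and 25.4% of all genes. The size of this shift followed the scaling of the arrays. Quantile normalization gives equal ranks equal values, and the members' median rank was at the 99.5th to 99.7th percentile on every array. It thus leaves bright members little room to change, and a value near 0 cannot show whether their signal rose. With quantile normalization the median was 0.13 beside -0.01 over all genes, 27 members were above 0 and 21 below, and 4 of 48 rose and none fell beside 3.54% and 4.29% of all genes. With each array centred on its median the members' median was 0.92 and 2 of 48 rose (Rpl39 and Rpl39l), beside 9.32% of all genes. Rpl39l, also among the 22 above, passed the filter through its culture arrays alone. Over all genes the split between higher and lower calls turned as well, from 2759 and 1492 on the deposited scale to 1501 and 2082 with median centring and 567 and 686 with quantile normalization.

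**Figure D2:**
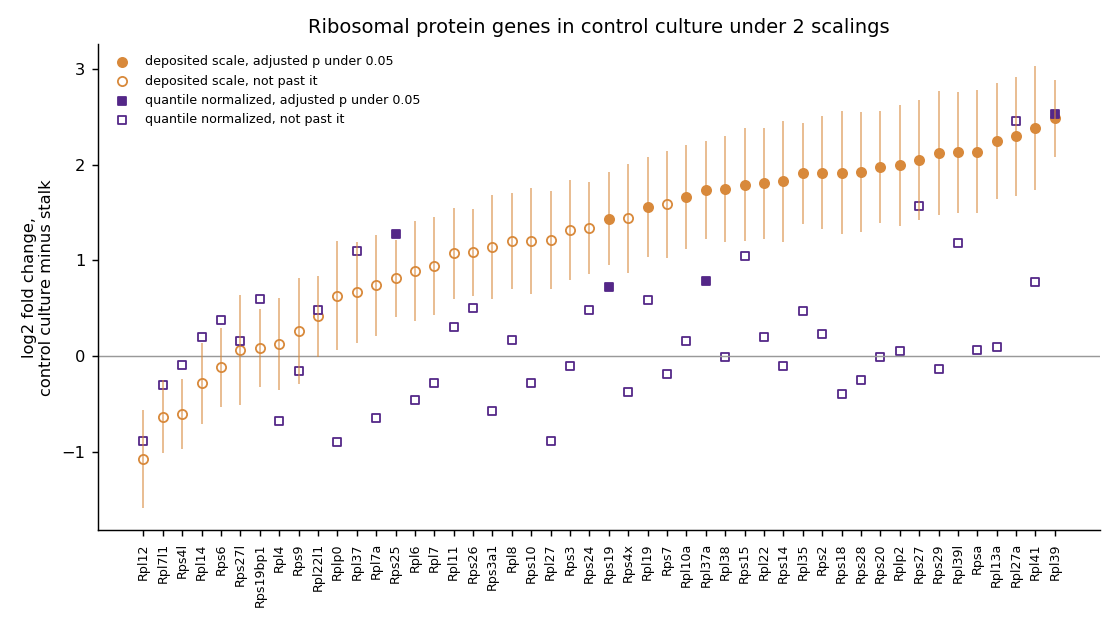
Log2 fold change of each of the 48 ribosomal protein genes between control culture and stalk, on the deposited scale (circles, with the standard error of the limma fit) and after quantile normalization (squares); filled symbols have an adjusted p under 0.05. The circles have a median of 1.39 and 22 filled symbols, the squares a median of 0.13 and 4, and Rpl39 lies at 2.48 and 2.53 under the 2 scalings. Quantile normalization leaves genes at the top of the signal range little room to change.

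The large subunit supplied 10 of the 22 calls, from 20 genes with a median of 1.39. Rpl39 had the largest value. It was at 182 and 410 in stalk and at 1952 and 1563 in control culture, so that the lower culture array was several times the higher stalk array. Its log2 fold change was 2.48 ± 0.41 SE (adjusted p = 0.0052 by limma). Rpl39 was called higher in 18 of 19 alternatives, the exception being the fit without stalk replicate 1, where its adjusted p was 0.062. Its rank within the array moved as well, from the 42.0th and 55.3rd percentile of genes tested in stalk to the 90.1st and 84.5th in control culture.

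Rpl41, the smallest protein of the ribosome, was at 38769 and 21216 in stalk and 221273 and 100928 in control culture (2.38 ± 0.65, adjusted p = 0.023 by limma). The culture replicates were far apart but both above stalk. Rpl27a was at 4130 and 1569 in stalk and 26316 and 6118 in culture (2.30 ± 0.62, adjusted p = 0.023). Rpl13a is a reference gene that also takes part in silencing inflammatory messages. It was at 45490 and 32708 in stalk and 235966 and 142734 in culture (2.25 ± 0.60, adjusted p = 0.022 by limma). By the ratio of group means that probe set was 4.84-fold up, and the gene's dimmer probe sets were 1.57, 2.30 and 2.32-fold up. Among Rpl41, Rpl27a and Rpl13a, only Rpl27a had a quantile-normalized value as large (2.45), while Rpl41 was at 0.78 and Rpl13a at 0.09. Rpl38, whose loss in mice disturbs patterning of the axial skeleton, was at 38332 and 26084 in stalk and 118485 and 95451 in culture (1.75 ± 0.55, adjusted p = 0.037). Its quantile-normalized log2 fold change was -0.0031. Rpl11, which can bind the Trp53 regulator Mdm2, was at 21632 and 17633 in stalk and 53646 and 31586 in culture, and did not pass (1.07 ± 0.48, adjusted p = 0.10).

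The stalk of the large subunit recruits the translation factors that hydrolyse GTP. Rplp2, an acidic protein of the stalk, was at 40123 and 27625 before and at 208391 and 84314 after control culture (1.99 ± 0.63, adjusted p = 0.037 by limma). Rplp0, on which the stalk is built, was at 38914 and 24098 before and 72610 and 31137 after. Its groups overlapped and it did not pass (0.63 ± 0.57, adjusted p = 0.40). With quantile normalization Rplp2 was at 0.06 and Rplp0 at -0.89. The difference between these partners was not tested.

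The small subunit had 10 calls of 20 genes, with a median of 1.51. Rpsa, also known as the laminin receptor precursor, was at 45549 and 28294 in stalk and 223145 and 111348 in control culture (2.13 ± 0.64, adjusted p = 0.032 by limma). Rps19, a gene mutated in Diamond-Blackfan anaemia, was at 20346 and 16188 in stalk and 58918 and 41161 in culture (1.44 ± 0.49, adjusted p = 0.047). It was 1 of 3 members past the threshold on both scales, with Rpl39 and Rpl37a, and its quantile-normalized value was 0.72. Rps25 was past it with quantile normalization (1.28, adjusted p = 0.039) but not on the deposited scale (0.82 ± 0.40, adjusted p = 0.14). Rps27, at 140 and 122 in stalk, was at 1219 and 368 in culture (2.05 ± 0.63, adjusted p = 0.033); this probe set was dim on the uncultured arrays, below 298.6 on all 4. Rps6, the target of S6 kinase, was at 3529 and 1402 in stalk and 2196 and 1926 in culture and its groups overlapped (-0.11 ± 0.41, adjusted p = 0.85).

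The largest values below 0 were those of Rpl12 and Rpl7l1. Rpl12, which sits at the foot of the stalk, was at 1436 and 1940 in stalk and 676 and 875 in control culture. The groups did not overlap, but the difference did not pass (-1.07 ± 0.51, adjusted p = 0.13 by limma). Rpl7l1, a paralog of Rpl7, was at 6502 and 6284 in stalk and 3324 and 5105 in culture (-0.63 ± 0.38, adjusted p = 0.22 by limma). A dimmer probe set of Rpl7l1 went the other way, from 1708 and 1916 to 2919 and 2876, and its dimmest was lower in culture. With every probe set quantile normalized, Rpl7l1 was among the genes called higher.

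Of the 5 paralogs tested, Rpl39l alone rose in control culture, from 9.05 and 71.7 to 466 and 186 (2.13 ± 0.63, adjusted p = 0.030 by limma), all in the dim range: only its replicate 1 in each medium, 466 and 353, lay above the highest array median of 298.6. Rpl22l1, the paralog of Rpl22, was at 8438 and 8687 in stalk and 13359 and 9791 in culture (0.42 ± 0.42), while the probe set standing for Rpl22 rose (1.80 ± 0.58, adjusted p = 0.039). Rps4l was at -0.60 ± 0.37 and its X-linked partner Rps4x at 1.44 ± 0.57, neither past the threshold. Rps27l was at 0.06 ± 0.57 beside 2.05 for Rps27, and Rpl7l1 at -0.63 beside 0.94 ± 0.51 for Rpl7. The differences between paralog and partner were not tested. Rps19bp1 was at 0.09 ± 0.40.

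WNT1 culture set against the same stalk arrays gave values of like size, and since both comparisons share the stalk arrays they are not independent. Of 48 members, 10 rose and none fell beside 9.35% and 6.88% of all genes, and the median was 1.47 (2.77-fold) beside 0.35. In 38 members both WNT1 arrays were above both stalk arrays and in 2 both were below, beside 41.5% and 25.5% of all genes. All 10 were among the 22 of control culture. They were 6 large-subunit genes (Rpl27a, Rpl35, Rpl37a, Rpl38, Rpl39, Rpl41), 3 small-subunit genes (Rps2, Rps27, Rpsa) and Rpl39l, tested only because its culture arrays passed the filter. Rpl39 was at 2027 and 1423 with WNT1, well above its 182 and 410 in stalk (2.44 ± 0.41, adjusted p = 0.0061 by limma). Rpl41 was at 2.14 ± 0.65, Rps27 at 2.10 ± 0.63, Rpl27a at 2.09 ± 0.62 and Rpsa at 2.03 ± 0.64, with adjusted p of 0.040 to 0.049. Rpl12 was at -1.13 ± 0.51 and Rpl7l1 at -0.47 ± 0.38. With quantile normalization the median was 0.20 and Rpl39 and Rpl37a rose and none fell, 2 and 0 of 48 beside 1.93% and 2.27% of all genes.

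Counts of members called depended on single arrays. Without stalk replicate 1, 0 of 48 passed in either culture comparison, beside 0.634% (control) and 0.777% (WNT1) of all genes. At an unadjusted p under 0.05 by limma there were then 22 members (control) and 24 (WNT1), beside 28% and 22.5%. Without stalk replicate 2 only Rpl39 passed in each, beside 0.236% of all genes higher in control and 0.211% in WNT1 culture. Without control culture replicate 1, the brighter of that pair, 1 rose (Rpl39), beside 2.92% of all genes, and without replicate 2, 27 rose, beside 20.3%. For WNT1, 4 rose without replicate 1, beside 2.36%. Without WNT1 replicate 2, 19 rose and 1 fell, beside 23.3% and 11.6%. The medians moved less, between 1.05 and 1.74 for control culture and between 1.21 and 1.65 for WNT1 culture.

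The 5 reference genes spread between arrays much as the rest of the family. Over the 8 arrays the highest signal was 2.24 times the lowest for Rpl4, 3.05 times for Rplp0, 5.04 times for Rpl19, 6.81 times for Rps18 and 7.21 times for Rpl13a. The median over the 48 members was 4.53. Among the 4 uncultured arrays alone these ratios were 1.39 to 1.78. All are by the probe set standing for each gene. A dimmer Rpl13a probe set ran from 14123 to 40436 over the 8 arrays, beside 32708 to 235966 for the one used. Rpl4 was at 27439 and 20183 in stalk and 30501 and 21702 in control culture, overlapping between groups (0.13 ± 0.48, adjusted p = 0.85 by limma). Rps18 was at 56323 and 35636 in stalk and 242578 and 118257 in culture and rose (1.92 ± 0.65, adjusted p = 0.046), and Rpl19 rose as well (1.56 ± 0.52, adjusted p = 0.044). With quantile normalization Rps18 was at -0.39, Rpl4 at -0.67 and Rpl19 at 0.58. All 5 ranked at or above the 98.8th percentile of genes tested on all 8 arrays.

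Members were set beside other genes in ranges of brightness, taken from the tip arrays, which enter neither culture comparison. The top range has no upper limit, so members and other genes are not matched within it. Of the 48 members, 32 and 33 were in the top 1% of genes on tip replicates 1 and 2, above 18233 and 19640. Among genes with a tip mean above 10000, 34 members had a median control culture minus stalk log2 fold change of 1.58 with 18 called higher, and 387 other genes one of 0.02 with 25 higher and 30 lower. Between 1000 and 10000, 11 members had a median of 0.06 and 3814 other genes -0.68. At 1000 or less the 3 members had 2.13 and 11863 other genes 0.89. With quantile normalization, which leaves little room for a change at the top ranks, the bright members were at -0.01 and the other bright genes at -0.31. Across the 48 genes the fold change correlated with the level at r = 0.22 (Spearman's rho 0.43) on the deposited scale and at r = -0.56 (rho -0.54) after quantile normalization. Genes are not independent replicates, and the level was the deposited tip mean under both scalings.

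Probe sets of the same gene went in opposite directions in culture. Rpl22 binds RNA in the nucleus as well as the ribosome. Its brightest probe set, of the kind ending in _s_at, was at 34669 and 23113 in stalk and 150684 and 65011 in control culture (1.80 ± 0.58). The dimmest, of the same kind, was at 3544 and 3348 in stalk and 1409 and 1177 in culture and fell (-1.39 ± 0.31, adjusted p = 0.016 by limma over all probe sets). The third, with a plain _at identifier, was at -0.49 ± 0.57. So the call for Rpl22 holds for 1 of its 3 probe sets and is opposed by another.

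Rps10 is a protein of the small subunit's head with 6 probe sets here. On the uncultured arrays 4 of them lay within 22142 to 35675 of one another. In control culture 3 of these were at 79430 to 97114 on replicate 1 and 37430 to 43538 on replicate 2, and the fourth, of the _x_at kind, was at 23079 and 9074. On WNT1 replicate 2, the culture array with the lowest Actb ratio, all 4 were again together at 82204 to 88245. Rpl41 split as well. Its pair of brighter probe sets had WNT1 minus stalk values of 2.14 ± 0.64 and 2.23 ± 0.63, and a dimmer one, also of the _x_at kind, fell, from 6457 and 2951 in stalk to 1561 and 1411 (-1.53 ± 0.38, adjusted p = 0.030 by limma over all probe sets). Rps7, Rps3, Rps9, Rps20, Rpl7l1, Rpl7, Rpl37a and Rps27l also had probe sets of both signs in control culture minus stalk.

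With every probe set tested, 31 of 100 rose and 1 fell in control culture, beside 13.1% and 7.38% of all probe sets. Values differed with the kind of probe set. The 42 whose identifiers end in _x_at or _s_at, marking probes that can bind several transcripts, had a median of 1.67. The 28 ending in _a_at, for transcripts of 1 gene, had 1.11. The 30 plain ones had 0.49, and were dimmer in tip (median 1638 beside 26991 and 25981). Retropseudogenes of these genes are numerous, so signal from near-identical copies cannot be separated by the first kind.

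**Figure D3:**
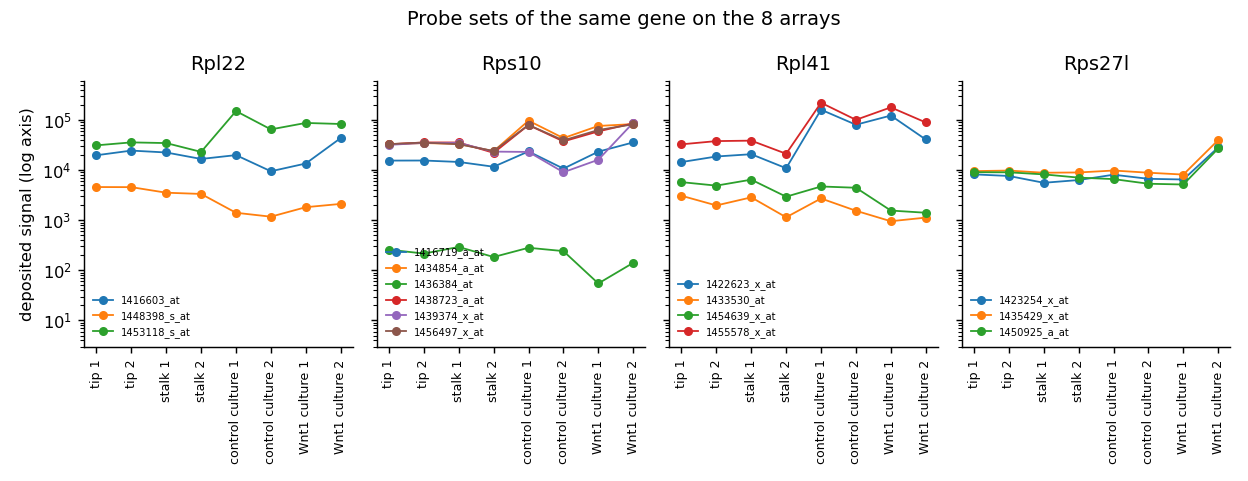
Deposited signal (log axis) of every probe set of Rpl22, Rps10, Rpl41 and Rps27l on the 8 arrays; each line is 1 probe set. Probe sets of Rpl22 diverge in culture, 1 of 4 bright Rps10 probe sets leaves the others on 3 of the 4 culture arrays, and all 3 of Rps27l are high on WNT1 culture replicate 2 only.

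The match to the TOP tract at the annotated start was set against the fold changes. Genes without a match there may carry the tract a few bases away, so this split cannot sort TOP messages from others. The 8 genes with it had a median control culture minus stalk log2 fold change of 1.83, and the 34 tested genes without it 1.33. After quantile normalization the medians were 0.13 and 0.18. Within both sets the values were wide, from -0.28 (Rpl14) to 2.05 (Rps27) with the tract and from -1.07 (Rpl12) to 2.48 (Rpl39) without. The array measures the amount of message, not its translation.

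Part of the genes that build ribosomes fell in culture. Among 27 ribosome biogenesis genes, 9 fell and none rose in control culture, beside 9.26% lower and 17.1% higher among all genes. Their median was -0.65 beside 0.45 over all genes. Brightness was not matched here. Of 3814 genes outside the family with a tip mean between 1000 and 10000, 1078 fell and 87 rose, with a median of -0.68. A fall was thus not particular to biogenesis genes. With quantile normalization 6 fell beside 4.29% of all genes, with a median of -0.29 beside -0.01. The 3814 genes then had 306 lower and 162 higher calls and a median of -0.34. Ncl, the nucleolar protein nucleolin, was at 15558 and 10400 in stalk and 2998 and 6106 in culture (-1.56 ± 0.43, adjusted p = 0.023 by limma, quantile-normalized -1.47). Nop58, a core protein of the particles that methylate ribosomal RNA, was at 4738 and 4716 in stalk and 1541 and 898 in culture (-1.96 ± 0.35, adjusted p = 0.0068, quantile-normalized -1.58). Dkc1, the pseudouridine synthase, fell by 1.59 (SE 0.34, adjusted p = 0.012). Polr1b, a subunit of RNA polymerase I, fell by 1.93 (SE 0.51, adjusted p = 0.022). In WNT1 culture minus stalk 2 of the 27 fell, Dkc1 and Nop58, a share near the 6.88% of all genes.

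Of 12 genes that control ribosomal protein synthesis, 4 fell and 1 rose in control culture, beside 9.26% and 17.1% of all genes. Brightness was not matched for these either. Myc was at 1392 and 1463 in stalk, 357 and 344 in control culture and 465 and 352 with WNT1. The culture values lay together, far below stalk (control -1.90 ± 0.34, adjusted p = 0.0066; WNT1 -1.71 ± 0.34, adjusted p = 0.011; limma). Mycn (-3.31 ± 0.76), Tsc2 (-1.96 ± 0.46) and Larp1 (-1.09 ± 0.35) fell too, and Eif4ebp1, the translation repressor inhibited by mTOR, rose (1.37 ± 0.38, adjusted p = 0.025). With quantile normalization Myc and Tsc2 fell and Eif4ebp1 rose in control culture, beside 4.29% lower and 3.54% higher among all genes. Tsc2 was at 56.7 and 37.5 in control culture but at 329 and 375 with WNT1, near its 310 and 304 in stalk. Its WNT1 minus control culture log2 fold change was 2.13, the largest of these 12 genes, and did not pass, as 0 of 16112 genes did. The stalk and WNT1 values lie only a little above the highest array median of 298.6.

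Translation factors and other TOP messages were mixed. Of 13 tested, Eef1d (1.36 ± 0.43) and Tpt1 (1.72 ± 0.59) rose in control culture and none fell (adjusted p = 0.038 and 0.048 by limma), a share near the 17.1% of all genes called higher. The median was 0.25 beside 0.45 over all genes. With quantile normalization Eef1d rose and Npm1, Pabpc1 and Eef1a1 fell, beside 3.54% higher and 4.29% lower among all genes. The median was then -0.18 beside -0.01. Fau, which encodes the small-subunit protein Rps30 as a fusion and so escapes the choice by symbol, was at 18909 and 14119 in stalk and 62410 and 25923 in culture (1.30 ± 0.51, adjusted p = 0.072). Mitochondrial ribosomal proteins serve translation in the mitochondrion. Their 76 genes had a median of -0.01 in control culture minus stalk, with 3 higher and 6 lower calls beside 17.1% and 9.26% of all genes. With quantile normalization the median was 0.34 beside -0.01 over all genes, with 5 higher and 1 lower beside 3.54% and 4.29% of all genes. In WNT1 minus control culture 70 of the 76 were above 0, beside 7170 of 16112 genes, with a median of 0.35 beside -0.08, and none was called, as for all genes. In 24 of the 76 both WNT1 arrays were above both controls and in none both were below, beside 10.1% and 15.9% of all genes. With quantile normalization 59 of the 76 were above 0, with a median of 0.24.

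**Figure D4:**
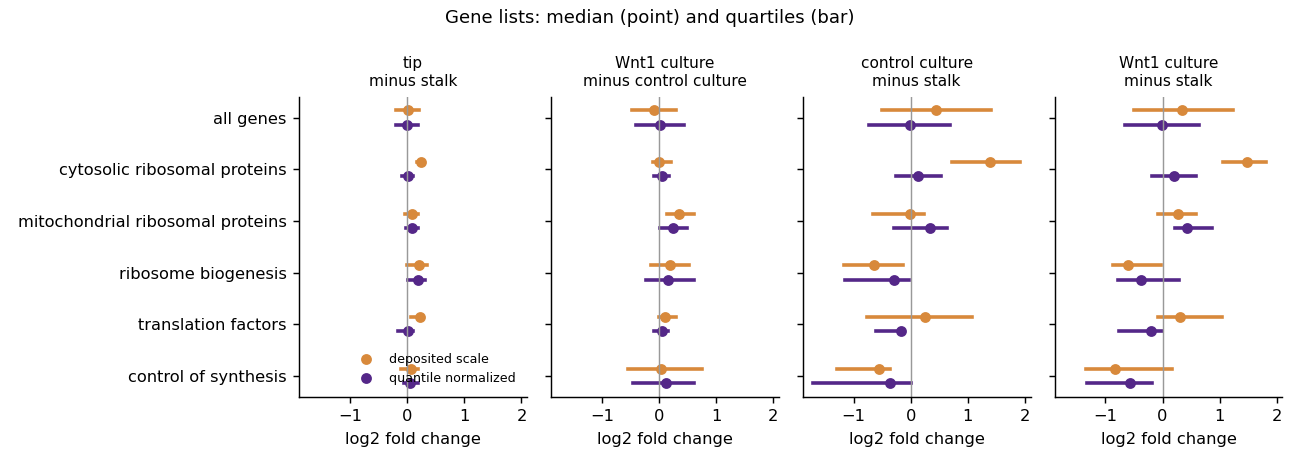
Median (point) and quartiles (bar) of the log2 fold change of 6 gene sets in the 4 comparisons, on the deposited scale and after quantile normalization. Cytosolic ribosomal proteins lie at 1.39 and 0.13 in control culture minus stalk under the 2 scalings, and ribosome biogenesis genes at -0.65 and -0.29.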

How the data were processed

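RNA from 8 samples in 4 groups of 2 was, per the labels' protocols, amplified in 2 cycles, labelled with biotin and put on Affymetrix arrays. The deposited file holds linear intensity values that the authors made with MAS5 in Affymetrix Expression Console, per the submitters' processing notes. For the probes a genome build, and for the software its version and settings, were not given in the sources used here. Each array shows a 2% trimmed mean of about 500. The highest array median, 298.6, stands in for a noise floor, as detection calls did not enter.

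Of 45101 probe sets, 64 controls were left out. The platform annotation gives 34945 of the rest 1 symbol, 932 several and 9160 none, and only the first entered. All 106 member probe sets matched RefSeq (GRCm38.p6) and 0 symbols changed. A probe set was kept if 2 or more arrays exceeded 96.6 (the 40th percentile over the whole table), and the one with the highest mean stood for its gene, which left 16112 genes. Tests used log2(intensity + 44), 44 being the 25th percentile, a scale on which folds of dim genes come out too small. One limma fit (version 3.58.1, R 4.3.3) took in all 8 arrays (eBayes with an intensity trend, no covariate), two-sided, with Benjamini-Hochberg adjustment over all genes. The fit was tested on simulated data. Plots used Python 3.11.15 and matplotlib 3.10.9.

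The members, gene lists and tests were chosen with earlier results of these data known. Named genes were, per comparison and direction, the 5 members with the largest change past the threshold and without overlap, or the 3 largest as values where fewer than 3 passed, plus a fixed set of stalk, reference and paralog genes. Rpl37, Rps25 in culture, and the pathway genes named within their lists were picked after their values were seen. There were 23 alternatives, 2 of them added after seeing the data (all probe sets with quantile normalization, and leaving out both culture arrays numbered 1). Same-numbered arrays of different groups are not stated to belong together, and no group is paired.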

Additional observations from a re-analysis of the deposited data

How the results depend on the processing

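Main values in control culture minus stalk were 22 members higher, a median log2 fold change of 1.39 and 0.94 relative to all genes. Members called higher, with the share of all genes called higher under the same setting in brackets, numbered 8 with no filter (14.3%), 4 with quantile normalization (3.54%), 2 with median centring (9.32%), 1 with signals floored at the highest array median (1.84%), 14 with the mean of probe sets (17.8%), 7 without _x_at and _s_at probe sets (16.6%), and 11 with every probe set quantile normalized (2.38%); 1 was lower with every probe set, with only the 2 groups, and without both culture arrays numbered 1. The median was 0.13 with quantile normalization, 0.92 with centring, 1.05 with the mean of probe sets and also without both culture arrays numbered 1, and 0.16 for every probe set quantile normalized. Relative to all genes it was 1.34 with the filter at the highest array median, 0.14 with quantile normalization, 0.58 with every probe set, 0.50 with the mean of probe sets and 0.29 for every probe set quantile normalized. In WNT1 culture minus stalk (main 10, 1.47 and 1.12), the higher calls were 6 with a pseudocount of 1 (10.2%), 5 with one at the 50th percentile (6.19%), 2 with no filter (6.92%), 25 with the filter at the highest array median (10.2%), 2 with quantile normalization (1.93%), 1 with centring (5.9%), 1 with the floor (0.54%), 6 with the mean of probe sets (8.55%), 4 without _x_at and _s_at probe sets (8.9%), 4 with only the 2 groups (13%), 18 without the intensity trend (9.96%), 44 without both culture arrays numbered 1 (19.5%) and 3 for every probe set quantile normalized (1.01%); 1 was lower with every probe set. The median was 0.20 with quantile normalization, 1.14 with centring and 0.22 for every probe set quantile normalized. The relative one was 1.45 with the higher filter, 0.20 with quantile normalization, 0.75 with the mean of probe sets and 0.33 for every probe set quantile normalized. Without both culture arrays numbered 1, no replicate remains in either culture group, and WNT1 minus control culture had a median of 0.54 and 0.71 relative to all genes. The replicate number as a block gave 24 higher members in control culture (21.8%) and 20 in WNT1 culture (14.9%), both minus stalk, and no call in the other 2 comparisons; with 2 pairs, same-numbered arrays correlated in their deviations at -0.08 (tip and stalk), 0.30 (WNT1 and control), 0.14 (control culture and stalk) and 0.15 (WNT1 culture and stalk). Among called genes named by the rule, values that turned sign were Rpl22 in control culture, -0.026 with the mean of probe sets and -0.49 without _x_at and _s_at probe sets, Rpl38 (-0.0031) and Rps18 (-0.39) in control culture with quantile normalization, and Rpl41 in WNT1 culture, -0.78 without _x_at and _s_at probe sets. Over all members, quantile normalization turned the sign of 6 of the 22 called in control culture (also Rps14, Rps20, Rps28 and Rps29) and 14 of the 26 not called. In WNT1 culture minus stalk it turned 0 of 10 and 15 of 38. At the top ranks this scaling leaves little room for a change, so values there lie near 0 beforehand. Except where fewer arrays or probe sets entered, the cause was not tested. Leaving out 1 array at a time, control culture had 0 to 27 higher, medians of 1.05 to 1.74 and relative ones of 0.69 to 1.36. WNT1 culture had 0 to 19 higher, 0 to 1 lower, 1.21 to 1.65 and 0.88 to 1.34. WNT1 minus control had 0 called, -0.27 to 0.40 and -0.15 to 0.49. Tip minus stalk had 0 called, -0.03 to 0.49 and -0.02 to 0.46. A lone array in a group is then assumed to vary like the other groups. Members in the dim range, below 298.6, carry little signal over background.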

Other observations

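The 110 probe sets that name a ribosomal protein gene together with other genes fall outside the choice by symbol. They name 46 such genes, and 106 of them passed the filter. Their median log2 fold change was 1.33 in control culture minus stalk, 1.42 in WNT1 culture minus stalk, 0.22 in tip minus stalk and 0.06 between WNT1 and control culture. These lie beside 1.39, 1.47, 0.24 and 0.01 for the 48 genes.

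Leaving out both culture arrays numbered 1, chosen after seeing the data, gave Rps27l a WNT1 minus control log2 fold change of 2.16. No replicate then remains in either culture group. The value sets WNT1 replicate 2, at 39879, against control culture replicate 2, at 8882, and so restates the single high array described above.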
